A study of Mus musculus with 36 samples.

Results

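The growth hormone and insulin-like growth factor (IGF) axis was followed in 10 genes of regenerating mouse liver. The genes were taken by symbol: Igf1, Igfals and Igfbp3 (the circulating ligand and its carriers), Ghr and Stat5b (receptor and signal), Socs2 and Cish (feedback inhibitors), and Igfbp1, Igfbp2 and Igfbp4 (further binding proteins). They are 10 of the 21955 gene rows in each count table, and all 10 were among the 13436 genes that passed the filter on low counts. RNA came from frozen liver of C57BL/6JN mice of 2 ages, young (4 months) and old (18 months), at time points labelled before, 48, 72, 96, 120 and 240. The time labels carry no unit, and how regeneration was induced is not given in the sources used here. Young and old mice share the strain and the time points, no genetic change is named for either, and the submitters treat old as the group of interest and young as its reference. With 3 libraries for each age at each time point there were 12 groups and 36 libraries, which the series' design text calls biological replicates. The labels do not tie libraries of different time points to an animal.

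Growth hormone from the pituitary binds its receptor on hepatocytes, the kinase JAK2 is activated, and the transcription factor STAT5B carries the signal to the nucleus. There it drives Igf1 and Igfals, whose products circulate with IGFBP3 as a stable ternary complex, and it drives Socs2 and Cish, which damp the same receptor. Liver is the main source of circulating IGF1. IGFBP1 binds IGF1 in a short-lived complex, and its gene is switched off by insulin and switched on by fasting and by stress signals. In rodents the growth hormone pattern is pulsatile in males and more continuous in females, and many liver genes are sex-biased for that reason.

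Levels are in CPM, counts divided by the library total after correction for composition, and none is a level per length unless so named. Total counts ran from 2328233 to 6034446 per library, and the lowest count of any member in any library was 20. The summed level of 8 hepatocyte markers lay between 18682 and 31696 CPM in all 36 libraries and no marker was at 0 throughout, so the label liver held. Libraries stood apart in several ways. The labels give no sex, but 12 libraries, 1 per group, carried transcripts of Y-linked genes (a summed 177 to 321 CPM over Uty, Kdm5d, Ddx3y and Eif2s3y) and the remaining 24 had 0.212 CPM or less. In 3 libraries (young before replicate 3, young 72 replicate 1 and old before replicate 1) more than 18000 genes were detected, against 15073 to 17421 in the other 33.

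All 10 members were found in the RefSeq gene table of assembly GRCm38.p6. Igf1 lies at chr10:87858265-87937047, Igfals at chr17:24877844-24882011, Ghr at chr15:3317755-3583352, Stat5b at chr11:100780731-100859004, Socs2 at chr10:95383903-95417321, Cish at chr9:107296659-107302784, Igfbp2 at chr1:72824480-72852474 and Igfbp4 at chr11:99040005-99052655. Igfbp1 (chr11:7197787-7202546) and Igfbp3 (chr11:7206086-7215498) are neighbours, 3539 bases apart. In the GENCODE M21 annotation Igf1 and Cish each overlap an antisense gene, and the use of strand in counting is not given in the sources used here, so reads of the overlapping stretches cannot be assigned with certainty.

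RefSeq promoter windows of 300 bases (250 before to 50 after a transcript's start) were available for 9 members and not for Socs2. The STAT5 motif TTCNNNGAA, which reads the same on both strands, was found in the windows of Cish and Igfals, and in 8.3% of all 32851 windows. The core of the insulin response element, CAAAACA, searched on both strands, was found in the window of Igfbp1 and in 6.28% of all windows. The stretches around these matches are shown because they are the places where the 2 inputs discussed here, growth hormone and insulin, have a motif near a member's start. Each is written 5′ to 3′ on the plus strand of GRCm38.p6 with the motif in capitals. A match describes letters and not a bound site. The Cish stretch, at chr9:107296654-107296683, holds the motif at positions 1 and 12 counted from the start of the transcript. The Igfals stretch, at chr17:24877594-24877673, holds it 236 bases before a start, and the window of another Igfals transcript holds a further match 58 bases before its own. The Igfbp1 stretch, at chr11:7197637-7197756, holds the core 108 bases before the start.
Cish: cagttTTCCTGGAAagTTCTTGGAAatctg
Igfals: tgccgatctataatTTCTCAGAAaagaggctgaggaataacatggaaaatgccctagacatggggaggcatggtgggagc
Igfbp1: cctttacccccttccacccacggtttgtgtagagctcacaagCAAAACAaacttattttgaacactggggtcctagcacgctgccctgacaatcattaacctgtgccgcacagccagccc

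Per length, Igfbp4, Igfbp2 and Igfbp1 were the most abundant members in young livers before regeneration. In CPM per kilobase of merged GENCODE exons, young livers before had 478 for Igfbp4, 331 for Igfbp2, 295 for Igfbp1, 194 for Igf1 and 120 for Ghr. Igfals reached 69.7, Stat5b 15.7, Igfbp3 12.99, Socs2 7.35 and Cish 4.81 on the same scale. Old livers before gave 416 for Igfbp4 and 139.9 for Igf1. The feedback inhibitors were the lowest members per length, and in young livers Igfbp3 was the next above them.

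The first question was which members change during regeneration at each age, with the libraries before as reference. In young livers 3 of the 10 members were lower and 0 higher at 48, where 22.1% of all genes passed an adjusted p of 0.05 in the quasi-likelihood test of edgeR. At 72, 4 members were lower and 0 higher (17.5% of all genes called). A single member, Igfbp1, was lower at 96 (1.44%) and at 120 (0.595%). At 240, 0 members were called by edgeR (0.26% of all genes), with 1 at an unadjusted p under 0.05 (5.21%). DESeq2 called 1 member and 48 genes at young 240. In old livers 3 members were lower at 48 (24.3%), 2 at 72 (12.6%), 2 at 96 (6.85%), 1 at 120 (4.05%) and 1 at 240 (0.141%), and 0 were higher at any of them. With 10 members, 3 called is close to the share of all genes at 48 in either age. All of these calls were decreases, and in each the libraries of the time point lay wholly below those before. How many of all genes lay without overlap was not counted. Of all genes, 9.88% were called lower at young 48, 8.23% at 72, 0.752% at 96 and 0.372% at 120. In old livers these shares were 12.1% at 48, 5.92% at 72, 3.08% at 96, 2.08% at 120 and 0.127% at 240. The median log2 fold change of the members at 48 was -0.38 in young and -0.20 in old, beside -0.011 and 0.010 over all genes.

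**Figure D1:**
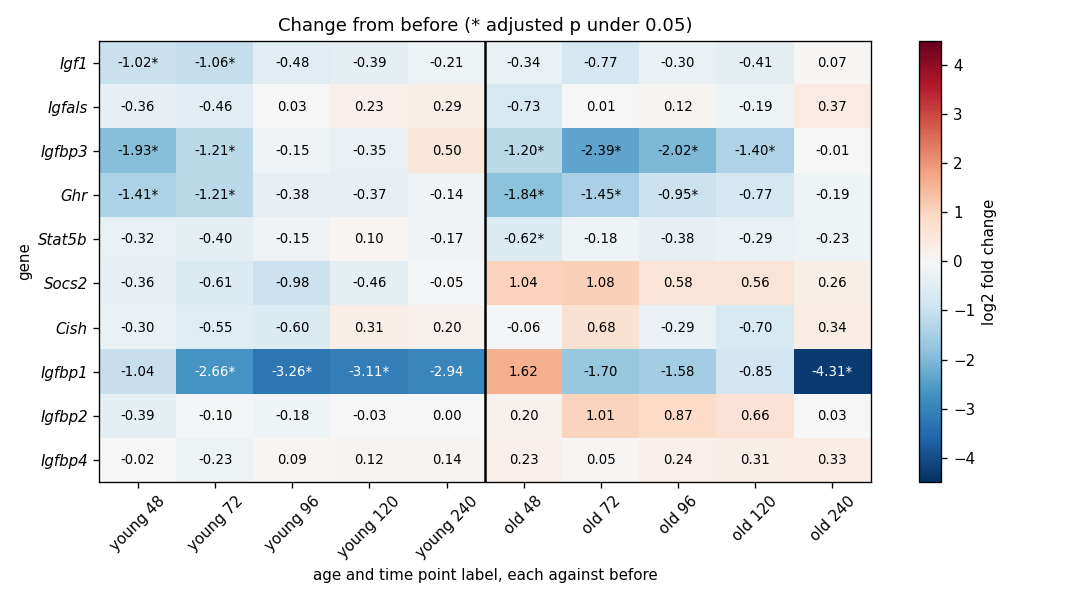
Log2 fold change of each member (rows) at each later time point against before, in young (left 5 columns) and old (right 5 columns); an asterisk marks an adjusted p under 0.05 in edgeR's quasi-likelihood test. The marked cells are all negative and lie in the rows of Igf1, Igfbp3, Ghr, Stat5b and Igfbp1.

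Igf1, the hormone itself, was lower early in regeneration of young liver. Its level was 1438, 1989 and 2323 CPM in the 3 young libraries before. It was 941, 1196 and 707 CPM at 48 and 774, 919.7 and 1064 CPM at 72. Every young library at 48 and 72 was below every young library before. The log2 fold change was -1.02 ± 0.27 at 48 (SE; adjusted p 0.00694) and -1.06 ± 0.27 at 72 (adjusted p 0.00763), which is 2.02-fold and 2.08-fold lower. The level then stood at 1120.4 to 1534 CPM at 96, 1274 to 1729 CPM at 120 and 1382 to 2094 CPM at 240, and no call was made at these time points. In this whole-tissue RNA, fewer cells of a type and less RNA per cell cannot be told apart. Without the 3 libraries of high gene detection Igf1 was not called at 48 (-0.82, adjusted p 0.0596) or at 72 (-0.77, adjusted p 0.174). The call at 48 was also lost without young 48 replicate 3 (adjusted p 0.0653) and that at 72 without young 72 replicate 1 (adjusted p 0.0519). On the scale of log2(CPM), the change of Igf1 at 48 was -1.02 among the Y-linked libraries and -1.02 among the others. At 72 it was -0.43 among the Y-linked libraries and -1.35 among the others.

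In old liver Igf1 held 1304, 1292 and 1560.1 CPM before, 807, 1602 and 884 CPM at 48 and 1096, 753 and 589.9 CPM at 72. At 48 replicate 2 was above the libraries before while the other 2 were lower. At 72 all 3 were below all 3 before, with a log2 fold change of -0.77 ± 0.27 and an adjusted p of 0.0572, so the call was missed. It was made without old 72 replicate 1 (-1.03, adjusted p 0.0245), without old 48 replicate 2 (-0.73, adjusted p 0.0377) by DESeq2 (adjusted p 0.0355) and with a term for Y-linked transcripts (adjusted p 0.0166). The change over time was not shown to differ between the ages, since Igf1 had an adjusted p of 0.838 in the interaction test. Old against young over all time points gave -0.23 ± 0.11 for Igf1 (adjusted p 0.219), with old lower at 5 of 6 time points.

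Igfals encodes the acid-labile subunit, the hepatocyte protein that completes the ternary complex. It was not called in any of the 10 comparisons with before. In young liver it held 123, 305 and 234 CPM before, 162, 221 and 133 CPM at 48 and 112, 156 and 214 CPM at 72, and these groups overlapped. In old liver it held 135, 247 and 165 CPM before and 119, 34.2 and 177 CPM at 48, where replicate 2 was far below the other 2. The same library also had the lowest Ghr, Igfbp2 and Igfbp4 of the 36. Igfals at old 48 gave -0.73 ± 0.43 (adjusted p 0.222). With a spread of this size the test does not show that Igfals was unchanged.

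Igfbp3, the main carrier of circulating IGF1, was lower early in both ages. Young libraries held 31.6, 46.3 and 44.1 CPM before, 11.1, 14.7 and 6.16 CPM at 48 and 23.5, 16.04 and 12.7 CPM at 72. The log2 fold change was -1.93 ± 0.41 at 48 (adjusted p 0.000891, 3.80-fold lower) and -1.21 ± 0.39 at 72 (adjusted p 0.0323). By 96 the young libraries were back at 29.9 to 43.9 CPM (-0.15 ± 0.38, adjusted p 0.903), and at 240 they held 41.7 to 66.4 CPM. Leaving out young before replicate 2 or 3, or young 72 replicate 2 or 3, took the adjusted p of Igfbp3 at 72 to between 0.0887 and 0.111, and it was 0.0734 with total-count scaling, 0.0946 without the 3 libraries of high gene detection and 0.114 without the 12 Y-linked libraries. The call at 48 held in all 46 alternatives. On the scale of log2(CPM), the change of Igfbp3 at 48 was -2.36 among the Y-linked libraries and -1.82 among the others.

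In old livers Igfbp3 was below its level before at 48, 72, 96 and 120. The libraries held 54.5, 71.3 and 46.8 CPM before and 20.00, 39.9 and 15.1 CPM at 48. They held 14.2, 8.89 and 9.76 CPM at 72, 9.45, 12.2 and 20.3 CPM at 96 and 9.61, 40.1 and 15.96 CPM at 120. Each of these groups lay wholly below the old libraries before, and at 240 the level was again 40.5 to 72.5 CPM. The log2 fold changes were -1.20 ± 0.38 at 48 (adjusted p 0.0226), -2.39 ± 0.41 at 72 (adjusted p 0.000436), -2.02 ± 0.41 at 96 (adjusted p 0.00321) and -1.40 ± 0.39 at 120 (adjusted p 0.0392). The largest of them, at 72, was 5.24-fold. The calls at 72 and 96 held in all 46 alternatives each. At 72 the change was -2.48 among the Y-linked libraries and -2.36 among the others on the log2(CPM) scale. That at 48 was lost without old before replicate 2 or old 48 replicate 1 or 3 (adjusted p 0.0835 to 0.0976) and without the 12 Y-linked libraries (0.107). That at 120 was lost without old before replicate 2 or 3 or old 120 replicate 1 or 3 (0.0927 to 0.200), without the 3 libraries of high gene detection (0.0562) and without the 12 Y-linked libraries (0.136).

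The difference between the 2 courses of Igfbp3 was near the threshold. Its interaction test gave an adjusted p of 0.0504, and it was called in 11 of 45 alternatives, among them DESeq2 (adjusted p 0.00419), the fit with a term for Y-linked transcripts (0.0221) and leaving out young 48 replicate 2, young 72 replicate 3, old 48 replicate 3, old 96 replicate 3, old 120 replicate 1 or 2, or old 240 replicate 1 (0.0108 to 0.0475). The old change from before less the young one was 0.73 ± 0.55 at 48, -1.18 ± 0.56 at 72 and -1.88 ± 0.55 at 96 (log2, SE). At 48 old livers held more Igfbp3 than young ones (1.23 ± 0.41, adjusted p 0.0481), with all 3 old libraries above all 3 young. That call was lost in 31 of 46 alternatives, 24 of them single left-out libraries from across the series, and without old 48 replicate 2 the value was 0.70 (adjusted p 0.423). It was 1.09 (adjusted p 0.188) without the 12 Y-linked libraries and 1.22 (adjusted p 0.0619) without the 3 of high gene detection. On the log2(CPM) scale the difference was 1.70 among the Y-linked libraries and 0.94 among the others. At 96 all 3 old libraries were below all 3 young ones (-1.37 ± 0.40, adjusted p 0.11), a difference called by DESeq2 (adjusted p 0.0486).

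In rodent liver Igfbp3 has been described mainly in cells other than hepatocytes, and markers of sinusoidal endothelium were looked at beside it. Of 8 such markers 4 were lower and 0 higher in young at 48 (Stab1, Pecam1, Kdr and Oit3), and 4 were lower at 72 (Clec4g, Kdr, Oit3 and Fcgr2b). In old, 3 were lower at 48 and 3 at 72 (Kdr, Oit3 and Fcgr2b at both), 1 at 96 and 2 at 120. Called lower among all genes were 9.88% at young 48 and 8.23% at young 72. The shares in old were 12.1% at 48, 5.92% at 72, 3.08% at 96 and 2.08% at 120. The summed level of the 8 markers was 555 to 636 CPM in young before, 320 to 454 CPM at 48 and 376 to 428 CPM at 72. It was 504 to 526 CPM at 96, 480 to 533 CPM at 120 and 451 to 504 CPM at 240. At 96, 120 and 240 the young sum lay below its range before. In old it was 459 to 666 CPM before, 381 to 530 CPM at 48, 356 to 447 CPM at 72 and 368 to 440 CPM at 96. At old 120 it was 387 to 446 CPM and at old 240 430 to 499 CPM. No marker of the list was at 0 in any group. Of 8 macrophage markers 4 were lower at old 48 (a summed 183 to 558 CPM, beside 559 to 779 CPM before), and none of those was at 0 either. The sum of the 8 was 390 to 625 CPM at old 72 and 411.5 to 546 CPM at old 96. It was 409 to 655 CPM at old 120 and 547 to 926 CPM at old 240. In young it was 428 to 515 CPM before, 360 to 472 CPM at 48 and 337 to 441 CPM at 72. At young 96 it was 600 to 670 CPM, at 120 418 to 955 CPM and at 240 445 to 714 CPM. Summed markers of stellate cells and fibroblasts (8 genes) were 473 to 632 CPM in young before, 341 to 485 CPM at 48 and 423 to 901 CPM at 72. In old they were 458 to 654 CPM before, 468 to 626 CPM at 48 and 368 to 480 CPM at 72. At 96, 120 and 240 they were 498 to 898, 425 to 479 and 463 to 539 CPM in young. At the same time points old libraries held 405 to 528, 405 to 539 and 319 to 560 CPM. The part of these cells in the Igfbp3 result was not tested.

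Ghr, the growth hormone receptor, was lower after the start of regeneration in both ages. Young libraries held 1078, 989.6 and 1197 CPM before, 386, 516 and 324 CPM at 48 and 342, 408 and 660.2 CPM at 72. They held 750.3, 925 and 835 CPM at 96, 941, 789 and 799 CPM at 120 and 1064, 939 and 952 CPM at 240. The libraries at 48 and 72 reached at most 660 CPM, and every library of the other time points was above them. The log2 fold change was -1.41 ± 0.25 at 48 (adjusted p 0.00011, 2.66-fold lower) and -1.21 ± 0.25 at 72 (adjusted p 0.0014), and at 96 it was -0.38 ± 0.24 (adjusted p 0.476). The call at 72 was missed without the 3 libraries of high gene detection (-0.93, adjusted p 0.0575). On the scale of log2(CPM), the change of Ghr at 48 was -1.74 among the Y-linked libraries and -1.29 among the others.

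In old liver Ghr held 878, 755 and 989 CPM before, 267, 154 and 313 CPM at 48 and 337, 380.5 and 244 CPM at 72. It held 371, 455 and 527 CPM at 96, 393, 459 and 681 CPM at 120 and 723, 761 and 814 CPM at 240. Every old library from 48 to 120 was below every old library before. The log2 fold changes were -1.84 ± 0.25 at 48 (adjusted p 1.7e-05, 3.57-fold lower), -1.45 ± 0.25 at 72 (adjusted p 0.000437) and -0.95 ± 0.24 at 96 (adjusted p 0.0166). At 120 the value was -0.77 ± 0.24 with an adjusted p of 0.065. The calls at 48 and 72 held in all 46 alternatives each, and without old 48 replicate 2 the value at 48 was -1.56 (adjusted p 0.000223). On the log2(CPM) scale that change was -1.72 among the Y-linked libraries and -1.98 among the others. That at 96 was lost without old before replicate 3, old 96 replicate 1 or old 96 replicate 2 (adjusted p 0.0703 to 0.107) and without the 12 Y-linked libraries (0.0872). At 120 Ghr was called without the 12 Y-linked libraries (-1.02, adjusted p 0.0259), by DESeq2 (0.0329) and without young 72 replicate 3, old 48 replicate 2 or old 120 replicate 3 (0.0232 to 0.0499). Among hepatocyte markers, Alb, Ttr and Cps1 were lower and Fgb was higher at old 48, 4 of the 7 tested, beside 24.3% of all genes. The summed level of the list there was 23404 to 24726 CPM, beside 19654 to 27683 CPM in old before. The part of this in the Ghr value was not tested.

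**Figure D2:**
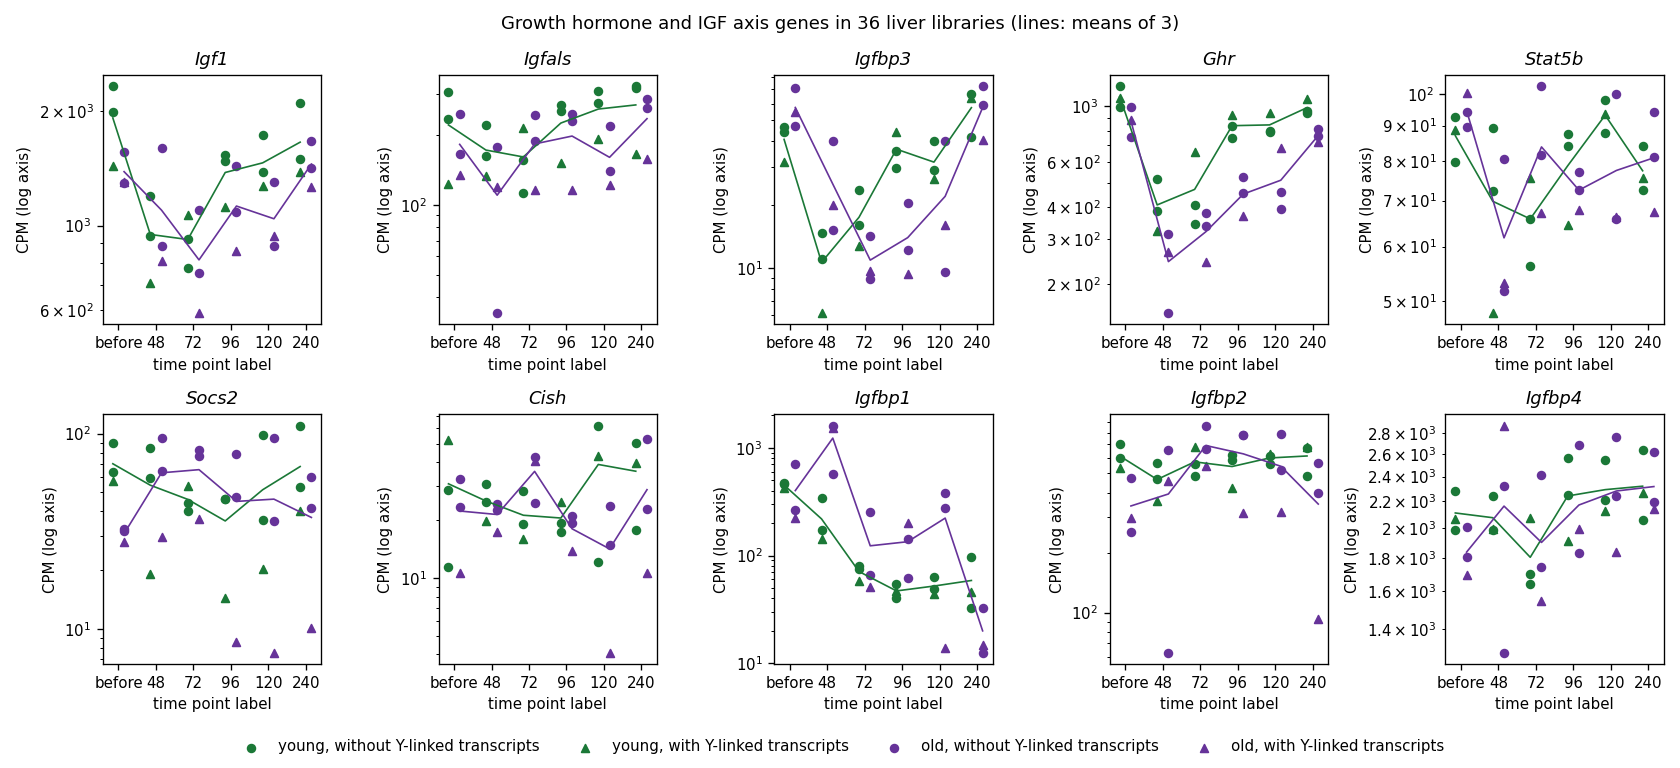
Level of each member in CPM (log axis) at each time point label in young (green) and old (purple) livers; each point is 1 library, triangles mark the 12 libraries with Y-linked transcripts and lines join the means of 3. Ghr and Igfbp3 drop after before in both ages, and Igfbp1 at 48 is high in old and not in young.

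Stat5b, the main carrier of the growth hormone signal in liver, was called at a single time point. Its level ran from 48.0 to 103 CPM over the 36 libraries. This was old 48, where the libraries held 53.1, 51.7 and 80.6 CPM against 100.3, 89.6 and 94.2 CPM before (-0.62 ± 0.20, adjusted p 0.0259). The 2 groups did not overlap. The call was lost in 8 of 46 alternatives, among them leaving out old before replicate 1 or 3 or old 48 replicate 1 or 2 (adjusted p 0.0749 to 0.147), leaving out the 3 libraries of high gene detection (0.0919) and leaving out the 12 Y-linked libraries (0.138).

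The comparison of ages asked whether the axis differs between old and young liver. Before regeneration edgeR called 0 members and 0.0595% of all genes. At an unadjusted p under 0.05 there were 0 members and 7.09% of all genes, and DESeq2 called 0 members and 28 genes. At 48, 3 members were called, beside 11.4% of all genes: Igfbp1 and Igfbp3 were higher in old and Ghr was lower. At 72, 0 of the 10 members and 0% of all genes were called, with 1 member and 668 genes at an unadjusted p under 0.05. By DESeq2 0 members and 16 genes were called there. At 96, 0 members were called (0.402% of all genes), with 3 at an unadjusted p under 0.05 (13.4% of all genes). DESeq2 called 2 members and 216 genes at 96. At 120 the count was 0 (0.0819%), with 3 at an unadjusted p under 0.05 (10%) and 0 by DESeq2 (39 genes). At 240 it was 0 (0.0149%), with 1 at an unadjusted p under 0.05 (5%) and 0 by DESeq2 (10 genes). Averaged over the 6 time points, 1 member (Ghr) was called, beside 6.13% of all genes. The interaction of age and time called 0 members by edgeR (2.91% of all genes), with 2 at an unadjusted p under 0.05 (14.4%). DESeq2 called 2 members and 729 genes in the interaction.

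Old livers had less Ghr message than young ones in the mean over the time points. At 48 the old libraries held 267, 154 and 313 CPM and the young ones 386, 516 and 324 CPM, and at 96 they held 371, 455 and 527 CPM against 750.3, 925 and 835 CPM. At both time points the highest old library was below the lowest young one. At 72 the groups overlapped, with 337, 380.5 and 244 CPM in old and 342, 408 and 660.2 CPM in young. On the log2(CPM) scale the difference there was -1.44 among the Y-linked libraries and -0.06 among the others. Before regeneration the highest old library (989 CPM) and the lowest young one (989.6 CPM) nearly met. The mean difference over the 6 time points was -0.60 ± 0.10 (log2 ± SE, adjusted p 0.000391), a 1.51-fold lower level in old, with old lower at 6 of 6 time points. The single differences ran from -0.89 to -0.32. On the scale of log2(CPM) the difference was -0.73 in the libraries with Y-linked transcripts and -0.55 in those without. The call over all time points held in all 45 alternatives. The difference at 48 alone (-0.74 ± 0.24, adjusted p 0.0464) lost its call in 25 of 46, 22 of them single left-out libraries, and without old 48 replicate 2 it was -0.50 (adjusted p 0.280). There it was -0.28 between the libraries with and -1.03 between those without Y-linked transcripts on the log2(CPM) scale. At 96 the difference (-0.89 ± 0.24, adjusted p 0.0863) was called by DESeq2 (0.0305) and without old 48 replicate 2 (0.0411). The interaction test gave an adjusted p of 0.846, so the course of Ghr was not shown to differ between the ages.

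**Figure D3:**
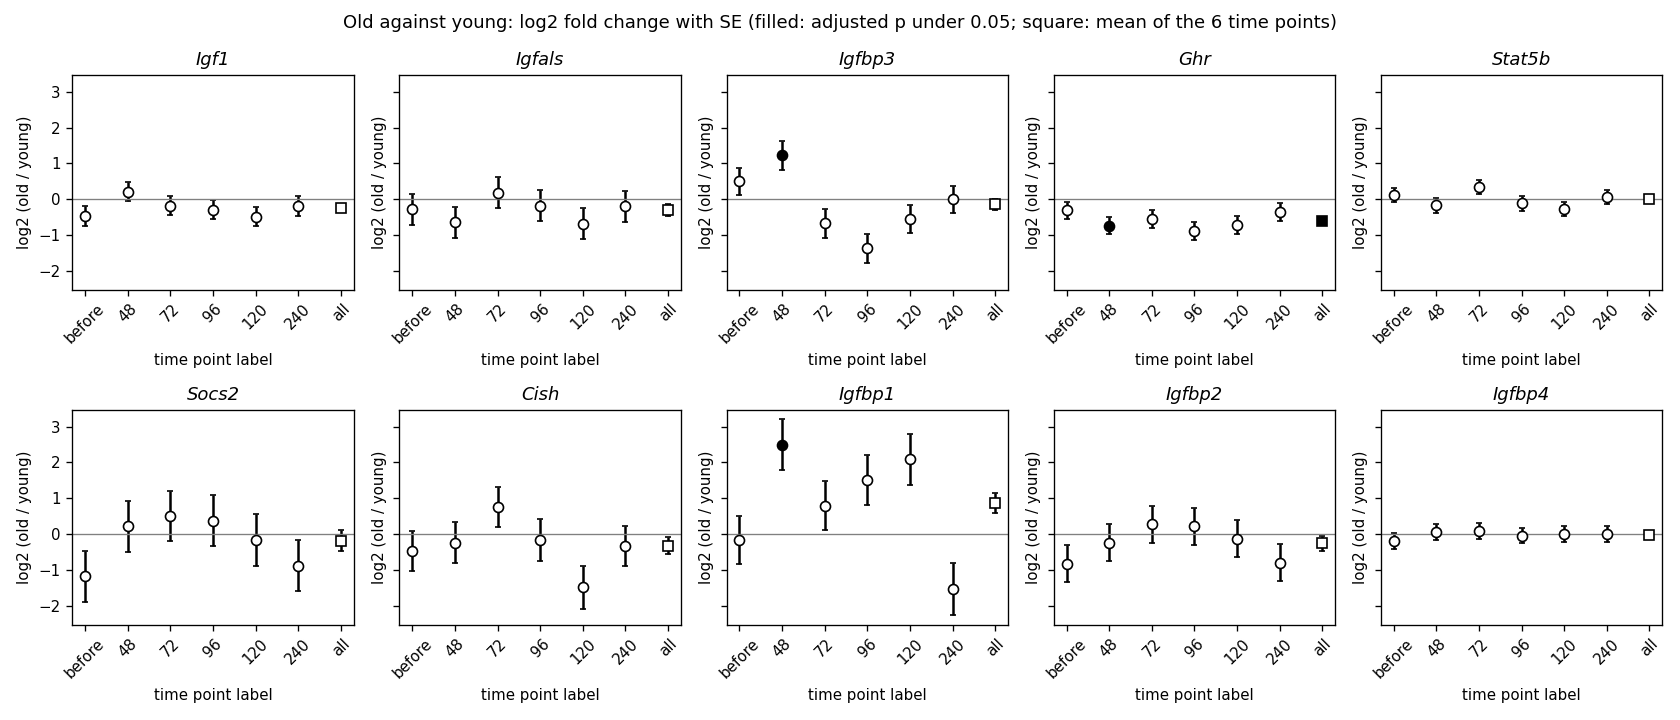
Log2 fold change of old against young for each member at each time point label (circles) and averaged over the 6 time points (squares), with SE; filled symbols have an adjusted p under 0.05. Ghr is below 0 at every time point, and Igfbp1 and Igfbp3 at 48 are the filled circles above 0.

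Igfbp1, whose product binds IGF1 and keeps it from its receptor for short periods, showed the widest range of the members. Young libraries held 422, 466 and 462 CPM before and 173, 339 and 143 CPM at 48. They held 79.7, 75.1 and 58.3 CPM at 72, 53.98, 46.6 and 40.4 CPM at 96, 44.03, 63.2 and 49.1 CPM at 120 and 45.6, 32.8 and 97.7 CPM at 240. From 48 on, every young library was below every young library before. The log2 fold change was -2.66 ± 0.72 at 72 (adjusted p 0.0114), -3.26 ± 0.74 at 96 (adjusted p 0.0189) and -3.11 ± 0.73 at 120 (adjusted p 0.0404), or 6.33-fold to 9.57-fold lower. At 48 (-1.04 ± 0.68, adjusted p 0.293) and 240 (-2.94 ± 0.73, adjusted p 0.109) it was not called. The call at 240 was made without old 120 replicate 3 (adjusted p 0.0152) and by DESeq2 (0.0144). The call at 72 was lost without the 3 libraries of high gene detection (0.0782). That at 96 was lost without young before replicate 2 or 3 or any 1 library at 96 (0.0505 to 0.0946), without the 12 Y-linked libraries (0.0519) and without the 3 of high gene detection (0.0693). That at 120 was lost when any 1 library of young before or young 120, young 48 replicate 1 or young 96 replicate 2 was left out (0.0507 to 0.157), with the replicate block (0.0609), without the 12 Y-linked libraries (0.0720) and without the 3 of high gene detection (0.109). The log2 fold changes under these settings stayed between -3.38 and -2.71.

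In old liver Igfbp1 was at its highest at 48. The libraries held 224, 266 and 711 CPM before and 1518, 1599 and 566 CPM at 48. They held 253, 65.5 and 50.9 CPM at 72, 200.1, 62.03 and 141 CPM at 96, 273, 380.2 and 13.9 CPM at 120 and 14.7, 12.6 and 32.7 CPM at 240. At 48 replicates 1 and 2 were above any other library of the series, and replicate 3 was within the range of the old libraries before. The change at 48 was 1.62 ± 0.69 with an adjusted p of 0.085, and it was called without old before replicate 3 (2.34, adjusted p 0.0497), old 48 replicate 3 (1.96, 0.0461) or old 120 replicate 3 (1.62, 0.0286), and with a term for Y-linked transcripts (1.74, 0.0499). On the log2(CPM) scale it was 2.76 among the Y-linked libraries and 1.13 among the others. At 72 (-1.70 ± 0.69, adjusted p 0.104) it was called without old 72 replicate 1 (-2.77, 0.0247) or old 120 replicate 3 (-1.70, 0.0380). At 240 all 3 libraries were below all 3 before, at -4.31 ± 0.79 (adjusted p 0.0135, 19.8-fold lower). That call was lost without old before replicate 3 or any 1 library at 240 (adjusted p 0.0521 to 0.137).

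At 48 the 2 ages were apart in Igfbp1. All 3 old libraries (566 to 1599 CPM) were above all 3 young ones (143 to 339 CPM), with a log2 difference of 2.49 ± 0.71 (adjusted p 0.0207), or 5.62-fold. On the scale of log2(CPM) it was 3.40 between the libraries with Y-linked transcripts and 1.97 between those without. The call was lost without young 48 replicate 1 or 3 or old 48 replicate 2 (adjusted p 0.0842 to 0.0976) and without the 12 Y-linked libraries (0.0649), with values of 2.07 to 2.34. The old change from before less the young one was 2.66 ± 0.97 at 48, and the interaction test over all time points gave an adjusted p of 0.0906. It was called without old 72 replicate 1 (0.0421), without old 120 replicate 3 (0.00894) and by DESeq2 (0.0198). Averaged over the time points old was higher by 0.86 ± 0.28 (adjusted p 0.0644), at 4 of 6 time points. That value was called by DESeq2 (0.0416) and without young 240 replicate 3 or old 48, 72 or 120 replicate 3 (0.00862 to 0.0479).

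Genes of the integrated stress response, in which the factor ATF4 raises genes such as Trib3, Chac1 and the hormone gene Fgf21, were looked at because Igfbp1 is among the genes this response is known to raise. At old 48, 6 of the 8 genes listed were higher and 0 lower, where 12.3% of all genes were called higher and 12.1% lower. The median log2 fold change was 2.23 for the list and 0.010 for all genes. At young 48, 0 were higher and 1 (Atf3) was lower, beside 12.2% and 9.88% of all genes. Between the ages at 48, 5 were higher in old and 0 lower, beside 4.5% and 6.88% of all genes. Fgf21 held 163, 21.9 and 40.3 CPM at old 48 and 2.11, 2.46 and 1.60 CPM before (5.17 ± 1.06, adjusted p 0.001). Trib3 held 111, 7.70 and 21.5 CPM and 7.28, 4.24 and 4.56 CPM (3.12 ± 0.69, adjusted p 0.00183), and Ddit3 115, 7.29 and 30.7 CPM and 6.10, 12.5 and 6.16 CPM (2.61 ± 0.55, adjusted p 0.00125). Replicate 1, which carries Y-linked transcripts, was the highest of the 3 libraries in these genes, and replicate 2 was the lowest. Chac1 held 16.4, 22.1 and 4.30 CPM at old 48 and 5.17, 1.56 and 5.25 CPM before (1.83 ± 0.62, adjusted p 0.03), and Atf4 345, 341 and 216 CPM and 164, 170.4 and 184 CPM (0.80 ± 0.17, adjusted p 0.00111). In Chac1 and Atf4, as in Igfbp1, replicates 1 and 2 were above replicate 3. The part of the stress response in the Igfbp1 value was not tested.

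Genes under insulin and FoxO1 control, which share regulation with Igfbp1 by textbook knowledge, included several that were lower at young 48 and 72. Of 7 listed, 4 were lower at young 48 (Pck1, G6pc, Srebf1 and Insr) and 4 at young 72 (G6pc, Srebf1, Irs2 and Insr), with 0 higher at either. Called lower among all genes were 9.88% at young 48, 8.23% at young 72 and 12.1% at old 48. At old 48 a single gene was lower, Srebf1, the lipogenic factor that insulin raises (-3.24 ± 0.33, adjusted p 6.02e-07). G6pc, the glucose-6-phosphatase of gluconeogenesis, held 1903, 1459 and 1622 CPM in young before and 433, 442 and 716 CPM at 48 (-1.65 ± 0.50, adjusted p 0.0168). In old it held 1818, 913 and 1544 CPM and 601, 848 and 547 CPM (-1.10 ± 0.49, adjusted p 0.1). Between the ages at 48, 1 gene of the list was higher in old (Insr) and 1 lower (Srebf1), beside 4.5% and 6.88% of all genes. Insulin raises Srebf1 and lowers Pck1, G6pc and Igfbp1, so genes of the list with opposite known responses were lower in young at the same time.

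**Figure D4:**
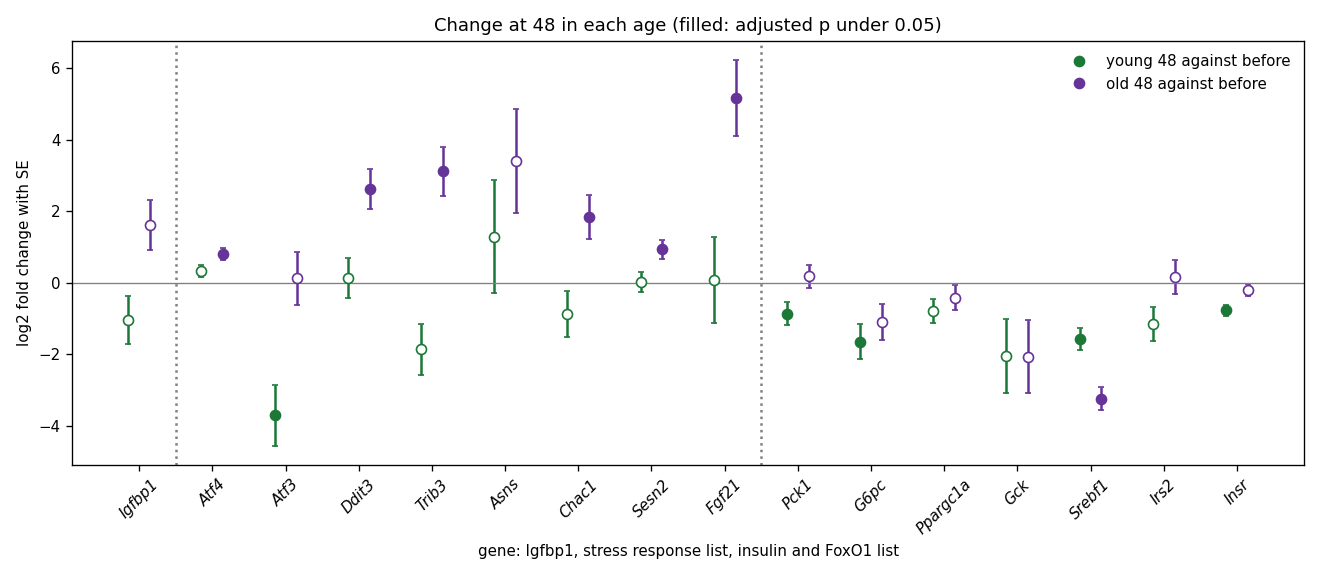
Log2 fold change at 48 against before, with SE, in young (green) and old (purple) livers for Igfbp1 (left), the 8 genes of the integrated stress response (middle) and the 7 insulin and FoxO1 genes (right); filled symbols have an adjusted p under 0.05. The filled old symbols of the middle list are all above 0, and the filled young symbols are all below 0.

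Igfbp2 and Igfbp4, which bind IGF1 outside the ternary complex, showed no call over time or between the ages. Igfbp4 lay between 1289 and 2872 CPM over the 36 libraries and was called in no comparison by edgeR, with the old against young difference at -0.02 ± 0.09 over all time points (adjusted p 0.94). Both ends of its range were libraries of old 48. Igfbp2 was likewise called in none, though the term for Y-linked transcripts was called without old 48 replicate 2 (-0.49, adjusted p 0.0440). It held 299, 254 and 475 CPM in old before and 531, 599 and 703 CPM in young before, which did not overlap (-0.83 ± 0.52, adjusted p 0.823). Its lowest values were 63.0 CPM in old 48 replicate 2 and 92.6 CPM in old 240 replicate 1, while every other library held at least 254 CPM.

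Socs2 and Cish, the feedback inhibitors that STAT5B induces, were called at no time point in either age and in no comparison of ages. Before regeneration Socs2 held 57.01, 63.9 and 89.3 CPM in young and 27.9, 32.6 and 31.7 CPM in old. The groups did not overlap, at -1.19 ± 0.72 and an adjusted p of 0.814. At 48 it held 59.5, 84.6 and 19.2 CPM in young and 29.6, 95.00 and 64.4 CPM in old. In both groups the library with Y-linked transcripts was the lowest of the 3. Cish ran from 4.09 to 61.9 CPM, and from 4.09 to 23.5 CPM within old 120 alone. Its values in young before were 52.4, 11.4 and 28.8 CPM and at young 48 30.9, 24.8 and 19.7 CPM, and the change was -0.30 ± 0.56 (adjusted p 0.75). Such a spread does not show that Cish was unchanged.

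The split by Y-linked transcripts ran through several members. The term for these libraries called 3 members, all lower, beside 8.48% of all genes. Socs2 was lower in them, at -1.30 ± 0.24 (log2 ± SE, adjusted p 0.000424), or 2.45-fold. Its median was 24.1 CPM (7.57 to 57.0) in the 12 libraries with and 59.7 CPM (31.7 to 110) in the 24 without. In 11 of 12 groups the Y-linked library was the lowest of its 3 for Socs2, and at young 72 it was the highest. The mean difference on the scale of log2(CPM) was -1.02 in young and -1.80 in old, and the difference between the ages was not tested. Igf1 was lower at -0.36 ± 0.10 (adjusted p 0.0185) and lowest in 9 of 12 groups, and Igfals at -0.57 ± 0.16 (adjusted p 0.0261) and lowest in 10 of 12. The median of Igfals was 134 CPM with and 239 CPM without Y-linked transcripts. The Socs2 call held in all 43 alternatives, while that of Igfals was lost when 1 of 6 libraries was left out (replicate 1 of young before, young 240, old 96 or old 240, or replicate 3 of old 48 or old 72, adjusted p 0.0503 to 0.0640). Ghr (0.08 ± 0.11, adjusted p 0.712) and Igfbp4 (-0.08 ± 0.10, adjusted p 0.678) were not called. The members' terms were not tested against each other, and with the replicate block Igf1 (0.0677) and Igfals (0.0732) lost their calls.

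**Figure D5:**
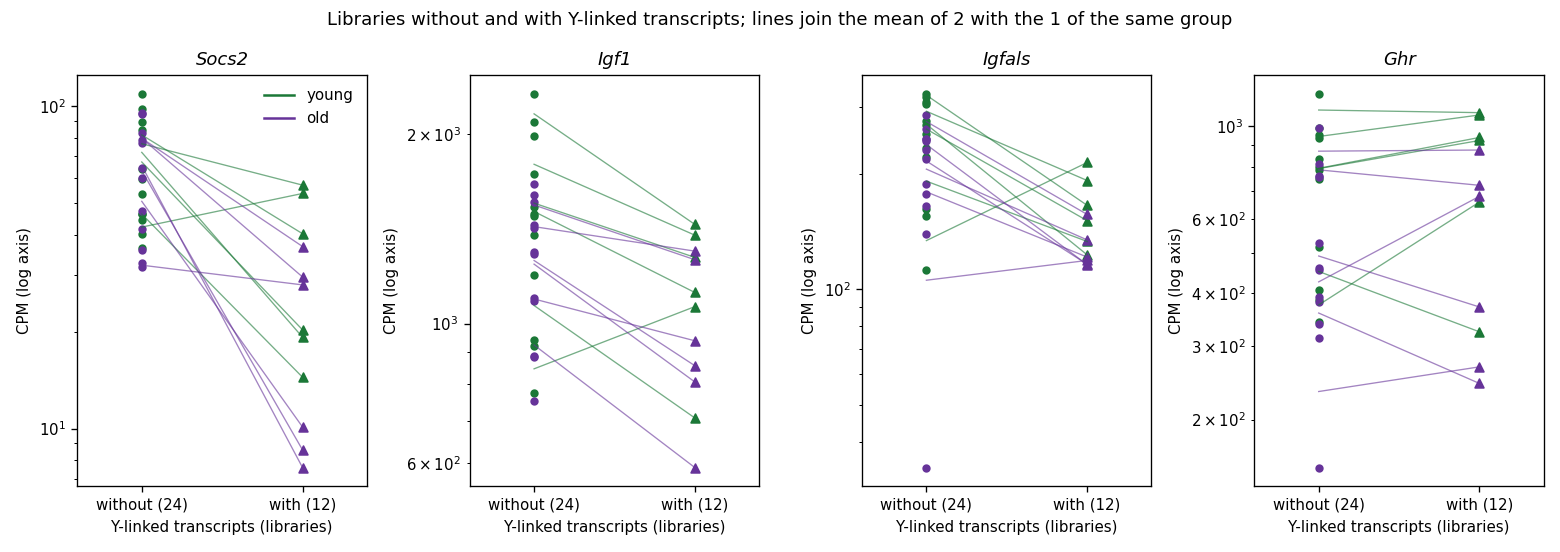
Level in CPM (log axis) of Socs2, Igf1, Igfals and Ghr in the 24 libraries without (circles) and the 12 with (triangles) Y-linked transcripts, young in green and old in purple; a line joins the mean of 2 libraries with the 1 library of the same group. Most lines fall for Socs2, Igf1 and Igfals, and for Ghr they go both ways.

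Listed growth hormone targets with a known sex bias gave the direction of this split. All 14 male-biased targets tested (Cyp4a12a, Hsd3b5, Elovl3 and others) were higher in the libraries with Y-linked transcripts, and all 17 female-biased targets (Cux2, Sult2a1 and others) were lower. Among all genes 4.61% were called higher and 3.88% lower in these libraries. The summed male-biased list was 990 to 3234 CPM in the 6 young libraries with and 216 to 747 CPM in the 12 without. In old it was 806 to 1888 CPM and 77.1 to 187 CPM. The female-biased list was 41.1 to 165 CPM and 887 to 6145 CPM in young, and 57.3 to 246 CPM and 762 to 8562 CPM in old. The ranges with and without did not overlap in either age for either list. Several of these genes belong to families of near-identical copies, whose counts can be shared among them. No target gene was at 0 in all 12 Y-linked libraries, but the lowest summed count of a female-biased target over them was 1. In the young Y-linked libraries 3 female-biased targets were at 0 in all 6. Over time, 2 male-biased targets (Hsd3b5 and Ugt2b38) were lower at young 48 and at 72, beside 9.88% and 8.23% of all genes. The female-biased Hamp2 was lower at both and at old 48, 72, 96 and 120, where other targets of that list called were Sult3a1 (lower) and Prom1 (higher) at young 72 and Hao2 (lower) at old 48. Old against young over all time points called 3 male-biased targets lower (Hsd3b5, Slco1a1 and Ugt2b38) and 1 female-biased target higher (Sult2a1). Among all genes 2.69% were called lower and 3.45% higher in that comparison.

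The wider pathway was described by a list of 37 genes outside the members, of which 32 were tested. At young 48, 3 were higher and 4 lower: the signal carrier Stat3 (0.76 ± 0.23), the adaptor Shc1 and the phosphatase Ptpn1 were higher, and Foxo3 (-1.31 ± 0.25), Insr, Pik3r1 and the IGF1 receptor gene Igf1r (-0.66 ± 0.22, adjusted p 0.0297) were lower. At old 48, 4 were higher (Lepr, Stat3, Ptpn11 and Shc1) and 2 lower (Foxo3 and Pik3r1). These 7 and 6 of 32 genes are shares near or under the 22.1% and 24.3% of all genes called there, so the counts set the list apart at neither age. The leptin receptor gene Lepr held 139, 1046 and 93.7 CPM at old 48 and 12.4, 17.4 and 31.3 CPM before (4.38 ± 1.10, adjusted p 0.00489), and replicate 2 was far above the other 2 libraries. Without old 48 replicate 2 the change was 2.54 (adjusted p 0.0763). At young 48 Lepr held 24.02, 35.2 and 10.1 CPM, and the difference between the ages (4.21 ± 1.09, adjusted p 0.0105) was 2.32 (adjusted p 0.199) without that library. It was also not called without young 48 replicate 1 (0.0542) or 3 (0.0613) or with the replicate block (0.0925). At young 72 the counts were 3 higher and 3 lower (17.5% of all genes called) and at old 72 1 higher and 2 lower (12.6%). Igf2r was higher in both, and Jak2, the kinase of the growth hormone receptor, was lower in old (-0.53 ± 0.16, adjusted p 0.0294). Over all time points old livers had less Grb10, which restrains the insulin and IGF1 receptors (-0.62 ± 0.12, adjusted p 0.00187), and more Stat3 (0.31 ± 0.09, adjusted p 0.0423). Libraries with Y-linked transcripts had 5 pathway genes lower and 1 higher, beside 3.88% and 4.61% of all genes. These pathway genes included the prolactin receptor gene Prlr (-1.40 ± 0.18, adjusted p 2.76e-06) and Lepr (-1.79 ± 0.38). The median change of the list at 48 was -0.16 in young and 0.014 in old, against -0.011 and 0.010 over all genes.

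Genes whose levels followed a member most closely were ranked by Pearson's r of log2(CPM + 1) over the 36 libraries, as a description over libraries that share their time points, ages and Y-linked split. Ghr had the closest partners, Lactb2 (r = 0.948), Acadsb (0.944) and Tprkb (0.942). Igfals was closest to Lifr (0.890), Igf1 to Sod2 (0.877), Igfbp1 to Irf2bp2 (0.875), Igfbp3 to Pikfyve (0.855) and Igfbp2 to Notum (0.851). Stat5b was closest to Hgfac (0.816), Igfbp4 to Hs3st3b1 (0.778) and Cish to Onecut1 (0.752). Socs2 was closest to Cux2, a female-biased target (0.713), and over the 24 libraries without Y-linked transcripts that r was -0.094. Among the members themselves, Igf1 and Igfbp3 had r = 0.755 (0.726 without the Y-linked libraries), Igf1 and Ghr 0.685 (0.668), and Socs2 and Cish 0.535 (0.453). Igfals and Igf1, both growth hormone targets, had r = 0.383 (0.247).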

How the data were processed

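Whole-number counts per gene symbol were deposited by the authors, not normalized, with 1 table per library. Per the submitters' processing notes the tools were bcl2fastq 2.20.0, Trimmomatic 0.39, STAR 2.7.5b, Picard 2.20.8 and featureCounts, with build GRCm38 (mm10), and the annotation and strand setting are not given in the sources used here. Per the labels' protocols libraries were made from ribosomal RNA-depleted total RNA, so unspliced RNA counts too, and ERCC spike-ins were added, but 0 ERCC rows were in the tables and no spike-in scaling was made. Symbols that read as dates (27) were left as they were.

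Counts were fitted with edgeR 4.0.16 in R 4.3.3 over all 36 libraries with 12 group means, TMM factors (0.930 to 1.133), filterByExpr and quasi-likelihood F tests. Benjamini-Hochberg adjustment ran over all 13436 genes, and genes under 0.05 were called. The common biological coefficient of variation was 24.7%. The Y-linked split (summed level over 10 CPM) was tested as a term added to the group means. The fit was also run on simulated counts of independent libraries, with no Y-linked split and no outlying library. That run cannot speak for the calls here that depend on single libraries. Alternatives were other scalings and filters, DESeq2 1.42.0, a replicate block, a Y-linked term, only the groups compared, and leaving out libraries, and leaving out the 3 libraries of high gene detection was chosen after seeing the data.

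The members and all gene lists were chosen with earlier results of these data known. All 10 members are named whatever their result. Of other lists counts are given, and by rule at most the 4 called genes with the largest change per comparison; further genes named were chosen after their values were seen. The 3 genes most like each member were ranked by Pearson's r among genes with a mean of at least 1 CPM, predicted genes and pseudogenes left out. P-values measure the spread between these libraries only.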

Additional observations from a re-analysis of the deposited data

How the results depend on the processing

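No called value of a member changed sign under any alternative. Ghr over all time points, at young 48, old 48 and old 72, Igfbp3 at young 48, old 72 and old 96, and Socs2 in the Y-linked split were called in all alternatives run. The number of the 10 members called moved by more than 1.5 times, or to or from 0, in the comparisons of this and the next paragraph, and the cause was not tested. Without the 3 libraries of high gene detection it was 0 at young 72 (788 genes called in all, against 2350), 0 at young 96, 0 at young 120 and 0 at old 120. Without the 12 Y-linked libraries it was 0 at young 96, 0 at young 120, 1 at old 48, 1 at old 96 and 1 for old against young at 48. With only the groups compared in the fit it was 1 at young 240, 1 at old 48 (225 genes in all, against 3269), 0 at old 120, 0 at old 240 and 0 for old against young at 48 (1 gene in all, against 1530), where fewer libraries estimate the spread. With DESeq2 it was 1 at young 240 (48 genes in all, against 35) and 2 at old 120 (797, against 544). For old against young with DESeq2 it was 2 at 96 (216, against 54) and 2 over all time points (1035, against 824). In the interaction with DESeq2 it was 2 (729, against 391). With no filter on low counts it was 1 for old against young at 48 and 1 in the interaction, and with a term for Y-linked transcripts 1 in the interaction. Smaller moves were 3 to 2 at young 48 and at old 48 without the 3 libraries of high gene detection, 3 to 4 at young 48 with only the groups compared, 4 to 3 at young 72 with total-count scaling or without the 12 Y-linked libraries, 3 to 2 at old 48 with no filter, 3 to 4 at old 48 and 2 to 3 at old 72 with the Y-linked term, 2 to 3 at old 72 with DESeq2, and 3 to 2 for old against young at 48 with total-count scaling, a mean CPM of at least 1, or without the 3 libraries.

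Equal replicate numbers did not in general mark the same animal, since the Y-linked libraries carry different numbers at different time points. Of the 6 numbers, 1 (old replicate 2) kept the same Y-linked state at all time points, so the split does not settle it there. The mean correlation of same-numbered deviations was 0.059 (-0.391 to 0.588). Of the 3 numbers of its age, 16 of 36 libraries were each closest to their own. No comparison with unrelated numbering was made, so this count does not decide on pairing. With the replicate block the number of members called was 0 at young 120, 1 for old against young at 48, 1 at 96 (303 genes in all, against 54), 1 in the interaction and 1 in the Y-linked split.

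Leaving out each library in turn gave 2 to 3 members at young 48, 3 to 4 at 72, 0 to 1 at 96, 0 to 1 at 120 and 0 to 1 at 240. In old it gave 1 to 4 at 48, 2 to 4 at 72, 1 to 2 at 96, 0 to 2 at 120 and 0 to 1 at 240. For old against young it gave 0 to 3 at 48, 0 to 1 at 96, 0 at before, 72, 120 and 240, 1 to 2 over all time points, 0 to 1 in the interaction and 2 to 4 in the Y-linked split. Total-count scaling moved the median of all genes by over 0.1 at young 72 (0.211), young 96 (0.127), young 120 (0.103) and old 72 (0.111), and at young 48 it gave 2060 genes higher and 896 lower, against 1645 and 1328. Depth limits Cish, Socs2 and Igfbp3 most, whose lowest counts in a library were 20, 20 and 22.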
